A study of Homo sapiens with 6 samples.

Results

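The enzymes and complexes described here write or erase chemical marks on histones and DNA, or slide and eject nucleosomes. They were taken as the protein-coding genes whose symbols begin with HDAC, KDM, KMT2 or KMT5, DNMT, TET, SETD, EZH or SMARC, each followed by the number or letter of a family member. The rule found 67 of the 30330 genes listed in the expression tables, and it used no measured value. The 6 RNA-seq libraries came from H1975/OSI, a line made resistant to osimertinib, an inhibitor of the mutant epidermal growth factor receptor, and from its parent NCI-H1975, a lung adenocarcinoma cell line, with 3 libraries each. H1975/OSI was reached in steps of 0.03, 0.1, 0.3, 1 and 3 µM osimertinib across 7 months, and the control libraries are labelled NCI-H1975. The labels do not say whether drug was present when the resistant cells were harvested, whether H1975/OSI is a clone, or whether replicates are separate cultures, so the p-values may measure technical spread alone.

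Values are read counts per gene divided by a size factor per library, called normalized read counts below. They rest on 15174126 to 16276518 reads per resistant library and 15813497 to 16588479 per control library, of which the 67 genes took 0.539 to 0.591% and 0.521 to 0.550%. Resistant library 1 stood apart. Its counts differed from those of libraries 2 and 3 of the same line by a chi-square of 10.8 and 12.1 per gene, while that of libraries 2 and 3 with each other was 2.32 and control pairs gave 2.43 to 3.66. KRT8, an epithelial keratin, was abundant in both lines, with 17181, 16217 and 15758 in the resistant libraries, against 23286, 24002 and 22623 in the control libraries. NKX2-1, a lung lineage factor, had 439.5, 463 and 481 in the resistant libraries, against 303, 303 and 254 in the control libraries. The other lung markers were low in both lines. NAPSA had 31.1 ± 6.42 in the resistant and 20.3 ± 5.12 in the control libraries, and SFTPB had 0, 0 and 1.97, against 1.03, 1.04 and 8.67. EPCAM, an epithelial adhesion gene, was at 17.6 ± 2.03 in the resistant libraries and 379 ± 21.9 in the control libraries. Of 10 epithelial and lung markers 2 rose and 5 fell, among the latter CDH1 and KRT19 with log2 fold changes of -1.66 and -1.18. The 10 summed to 42922 to 50321 in the resistant and 60121 to 63654 in the control libraries. Of 8 fibroblast markers 6 were listed and 4 rose, led by the collagen gene COL1A2 at 29275 ± 1411 against 698 ± 62.5. The summed fibroblast list ran from 33097 to 36279 in the resistant and 5058 to 6076 in the control libraries, a difference carried by COL1A2, while COL1A1 had 4963 ± 299.7 and 4808 ± 428 and was not called. COL3A1, LUM and PDGFRB were also called higher, with log2 fold changes of 1.87, 2.08 and 0.44. COL3A1 and LUM were scarce, with means of 11.4 and 4.22 in the resistant and 2.74 and 0 in the control libraries. The PDGFRB groups overlapped. THY1 was at 0, 0 and 1.97 against 2.05, 0 and 2.89 and was not called. The 4 listed immune markers summed to 288 to 336 and 414 to 422, and the 4 endothelial ones to 557 to 759 and 289.6 to 332, where CDH5 rose (579 ± 105 against 126 ± 3.37) and PECAM1 fell (83.3 ± 4.996 against 181 ± 21.4). All 14 proliferation genes fell, with a summed level of 16806 to 17758 in the resistant libraries against 39576 to 40594 in the control libraries. In bulk RNA, fewer cells of a kind and less RNA per cell cannot be told apart, and the part of these shifts in the values below was not tested.

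As background, histone deacetylases (HDACs) remove acetyl groups, and lysine methyltransferases (KMT2, KMT5, SETD and EZH proteins) and demethylases (KDMs) add and remove methyl groups whose meaning depends on the residue. DNA methyltransferases place methyl groups on CpG cytosines and TET enzymes oxidise them. SMARC genes encode subunits of SWI/SNF and related remodellers, which spend ATP to move nucleosomes. In lung cancers SWI/SNF subunits such as SMARCA4 are recurrently mutated, and chromatin enzymes have been studied in tolerance of EGFR inhibitors.

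Over the 67 genes the resistant line did not move one way: 22 rose, 18 fell and 27 did not pass the test (limma on log2(value + 1), Benjamini-Hochberg adjusted p under 0.05). All 67 passed the filter on low values. Among all genes, 41.5% of 24560 tested genes were called, 20.4% higher and 21.1% lower, against 59.7% of the 67, 32.8% higher and 26.9% lower. Abundant genes were called more often, and among 10593 other protein-coding genes with a mean of 100 or more, a level chosen after the values were seen, 63.4% were called, 27.8% higher and 35.6% lower. The median log2 fold change of the 67 was 0.01, the same as over all tested genes. The changes were small: the median absolute log2 fold change was 0.28 for the 67, 0.33 over the abundant genes and 0.45 over all tested genes. Past 2-fold were 3 of the 67, or 4.48%, against 13.6% of all tested genes and 8.6% of the abundant ones: DNMT3L and SMARCD3 were higher and SMARCD2 lower. Resistant and control values did not overlap for 46 of the 67, or 68.7%, against 50.1% of all tested genes and 70.5% of the abundant ones. Centring each library on its median shifted every log2 fold change by -0.13 and gave 15 higher and 24 lower calls among the 67, and 3713 and 6666 over the whole table.

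**Figure D1:**
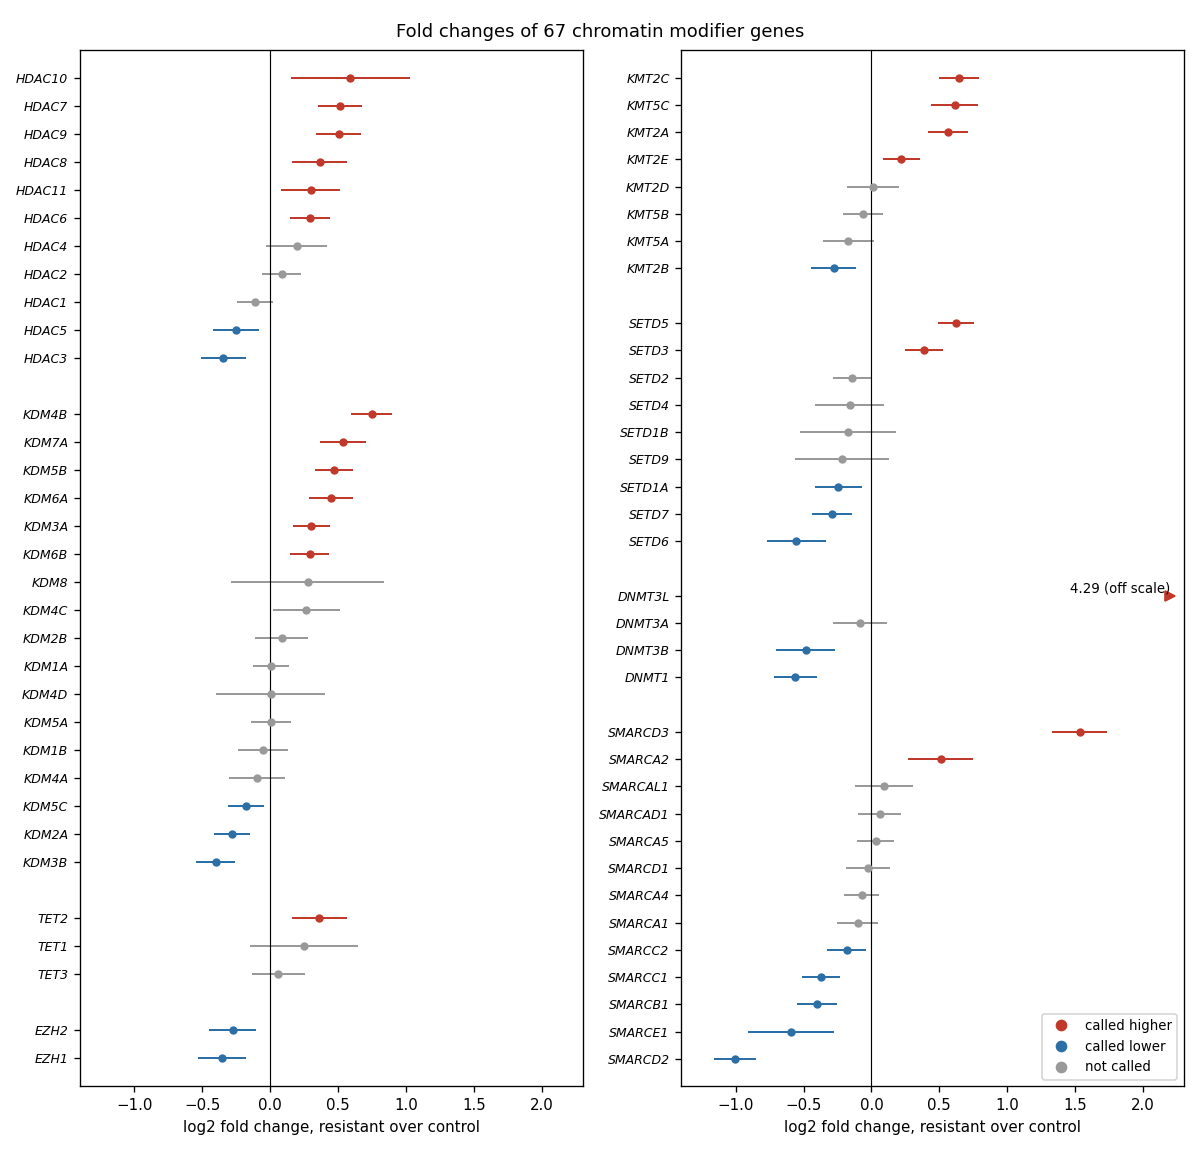
Log2 fold change of each of the 67 genes, resistant over control (x axis), with its 95% confidence interval from the limma fit over 3 against 3 libraries, ordered within families. Red genes were called higher and blue genes lower at an adjusted p under 0.05, grey genes were not called, and DNMT3L at 4.29 lies beyond the axis.

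Counts by family are given beside the shares over other genes. Among abundant protein-coding genes 27.8% were called higher and 35.6% lower, and among all tested genes 20.4% and 21.1%. Of 11 HDAC genes, 6 rose (54.5%) and 2 fell (18.2%), with a median log2 fold change of 0.30. Under median centring 2 HDAC genes rose and 3 fell, with a median of 0.16. All 24560 tested genes then gave 3713 higher and 6666 lower calls, with a median of -0.12. Of 17 KDM genes, 6 rose (35.3%) and 3 fell (17.6%), with a median of 0.08, and under median centring 5 rose and 3 fell (median -0.05). Of 8 KMT genes, 4 rose (50%) and 1 fell (12.5%), with a median of 0.12, but under median centring 3 rose and 3 fell (median -0.02). Of 9 SETD genes, 2 rose (22.2%) and 3 fell (33.3%), with a median of -0.17, and under median centring 2 rose and 4 fell (median -0.31). Both EZH genes fell, 2 of 4 DNMT genes fell and 1 rose, and 1 of 3 TET genes rose. Of 13 SMARC genes, 2 rose (15.4%) and 5 fell (38.5%), with a median of -0.07. Under median centring 2 SMARC genes rose and 7 fell (median -0.21), and under quantile normalization 2 rose and 4 fell (median 0.04). The SETD and SMARC shares that fell were near that of abundant genes. Differences between families were not tested.

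SWI/SNF complexes carry 1 ATPase, SMARCA4 or SMARCA2, on a scaffold of shared subunits. Of the 7 subunits without ATPase activity, 5 were called lower (71.4%) and 1 higher (14.3%), and of the 6 ATPases 1 was called higher (16.7%). The shares were 35.6% lower and 27.8% higher among abundant protein-coding genes, and 21.1% and 20.4% among all tested genes. Under median centring there were 5 lower and 1 higher calls among the 7 subunits, while 1 ATPase was called higher and 2 lower, and the difference between subunits and ATPases was not tested. SMARCD3 (ENSG00000082014, chr7:151238764-151277896, GRCh38) encodes BAF60C, a subunit known from heart and muscle development. Its normalized read counts were 603, 586 and 535 in the resistant libraries, against 192, 208 and 193 in the control libraries. All 3 resistant libraries lay far above the control libraries, and SMARCD3 rose 2.91-fold (log2 fold change 1.53, SE 0.10, limma adjusted p = 7.26e-12). SMARCD2 (ENSG00000108604, chr17:63832081-63843065) encodes BAF60B, a paralog known for its role in granulocyte maturation. Its counts were 792, 943 and 925 in the resistant libraries, against 1728, 1847 and 1754 in the control libraries. No resistant value came near the control values, and SMARCD2 was 2.002-fold lower (log2 fold change -1.005, SE 0.08, limma adjusted p = 1.21e-10). SMARCD1, which encodes BAF60A, the remaining paralog, had 958, 1141 and 1157 in the resistant libraries, against 1106, 1141 and 1059 in the control libraries. Its groups overlapped and it was not called (log2 fold change -0.03, 95% interval -0.19 to 0.14).

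The 3 paralogs occupy the same position in the complex. Per kilobase of listed gene length, SMARCD3 made up 19.9 ± 2.41% of the summed SMARCD1 to SMARCD3 level in the resistant libraries and 5.22 ± 0.061% in the control libraries (SD, n = 3 each). SMARCD2 made up 42.4 ± 1.02% and 65.3 ± 0.579%. SMARCD1 made up 37.7 ± 1.44% and 29.5 ± 0.602%. The summed level per kilobase was 559 ± 39.2 in the resistant libraries and 728 ± 24.6 in the control libraries. Here and below, comparisons between genes per kilobase depend on the listed gene length, and lengths of the expressed transcripts were not measured. SMARCD3 overlaps CHPF2, a glycosyltransferase gene on the opposite strand with 3336 reads per resistant and 2427 per control library on average and a log2 fold change of 0.41. Whether counting used strand is not given in the sources used here, so reads of overlapping genes cannot be told apart.

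The promoter windows of SMARCD3 and SMARCD2 are shown because these genes, after DNMT3L, changed most, and in opposite directions. Each runs from 250 bases before a RefSeq start to 50 after it (GRCh38.p14, minus strand, written 5′ to 3′ in the direction of the gene), with CG dinucleotides in capitals. SMARCD3 has 3 annotated start windows, with 31, 1 and 36 CG. The SMARCD2 window shown is its most upstream one and holds 41 CG. The deposited values are per gene and do not say which start was used.
SMARCD3, chr7:151277100-151277399: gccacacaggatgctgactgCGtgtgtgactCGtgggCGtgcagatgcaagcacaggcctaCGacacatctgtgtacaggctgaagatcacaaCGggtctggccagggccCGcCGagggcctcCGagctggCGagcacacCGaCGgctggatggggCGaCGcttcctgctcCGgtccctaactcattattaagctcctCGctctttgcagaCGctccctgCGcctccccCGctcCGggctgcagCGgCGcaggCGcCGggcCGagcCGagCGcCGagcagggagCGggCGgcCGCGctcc
SMARCD3, chr7:151276685-151276984: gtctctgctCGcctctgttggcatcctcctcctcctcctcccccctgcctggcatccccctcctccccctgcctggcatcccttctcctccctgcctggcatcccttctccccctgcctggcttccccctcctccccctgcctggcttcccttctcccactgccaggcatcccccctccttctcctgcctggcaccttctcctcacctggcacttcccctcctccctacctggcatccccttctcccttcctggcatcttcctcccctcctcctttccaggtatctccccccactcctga
SMARCD3, chr7:151248645-151248944: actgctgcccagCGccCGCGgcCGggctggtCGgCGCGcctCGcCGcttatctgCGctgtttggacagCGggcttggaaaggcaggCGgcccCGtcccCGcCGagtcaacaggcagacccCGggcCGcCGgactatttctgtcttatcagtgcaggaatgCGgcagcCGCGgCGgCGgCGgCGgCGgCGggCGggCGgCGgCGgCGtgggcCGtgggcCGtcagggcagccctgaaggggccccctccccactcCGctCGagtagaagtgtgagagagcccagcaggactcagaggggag
SMARCD2, chr17:63842636-63842935: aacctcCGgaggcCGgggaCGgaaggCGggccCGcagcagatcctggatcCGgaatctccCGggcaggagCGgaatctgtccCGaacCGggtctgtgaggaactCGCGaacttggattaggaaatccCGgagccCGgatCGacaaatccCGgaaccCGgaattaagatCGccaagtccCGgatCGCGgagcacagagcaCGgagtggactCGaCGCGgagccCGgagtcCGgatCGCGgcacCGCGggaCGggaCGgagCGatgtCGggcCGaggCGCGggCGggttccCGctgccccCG

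Core and scaffold subunits fell by less. SMARCB1, the core subunit SNF5 lost in rhabdoid tumours, had 1109, 1197 and 1123 in the resistant libraries, against 1469, 1601 and 1457 in the control libraries, a log2 fold change of -0.40 (SE 0.07, limma adjusted p = 5.06e-05). SMARCC1, a scaffold protein that stabilises the complex, had 2327, 2617 and 2744 in the resistant libraries, against 3304, 3348 and 3266 in the control libraries, with a log2 fold change of -0.37. SMARCE1, a subunit with a DNA-binding HMG domain, had 137, 98.8 and 93.7 in the resistant libraries, against 167, 166 and 157 in the control libraries, with a log2 fold change of -0.59. In each of these 3 genes every resistant value lay below every control value. SMARCC2, the paralog of SMARCC1, had 1304 ± 64.2 in the resistant libraries and 1479 ± 65.8 in the control libraries, and its fall was the smallest of the called subunits (log2 fold change -0.18, limma adjusted p = 0.0385). Its call ended in 7 alternatives, among them those with log2 fold changes of -0.14 (adjusted p = 0.0668) without resistant 1, -0.21 (adjusted p = 0.0560) without resistant 2, -0.16 (adjusted p = 0.155) without control 1 and -0.17 (adjusted p = 0.133) without control 2, and SMARCC2 overlaps MYL6, a myosin light chain gene with a log2 fold change of 0.21 and 8055 reads per resistant and 6721 per control library.

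Among the ATPases, SMARCA2 (BRM) was called. It had 291, 373 and 325 in the resistant libraries, against 242, 244 and 204 in the control libraries. The groups did not overlap, and the log2 fold change was 0.51 (SE 0.12, limma adjusted p = 8.85e-04). SMARCA4 (BRG1), the alternative ATPase of the same complexes, had 9538, 9820.4 and 9406 in the resistant libraries, against 10446, 10524 and 9309 in the control libraries. Its groups overlapped and it was not called (log2 fold change -0.07, 95% interval -0.20 to 0.06), but it was called lower under median centring (adjusted p = 0.00811) and with the gene length trend removed (adjusted p = 0.0376). Per kilobase SMARCA4 stood at 608 ± 13.4 in the resistant and 639.7 ± 43.1 in the control libraries, the highest of the 67 genes in the resistant line. In the control line KDM2A, at 683 ± 50.5, and DNMT1, at 667 ± 51.5, had higher means, within 1 SD of each other. SMARCA2 stood at 17.7 ± 2.22 and 12.4 ± 1.21 per kilobase. These ranks and levels depend on the listed gene length. SMARCA5 and SMARCA1, the ISWI motors, SMARCAD1, which helps chromatin restoration after replication, and SMARCAL1, which anneals DNA at stalled forks, were not called, with log2 fold changes of 0.03, -0.10, 0.06 and 0.09. SMARCA1 was called lower under median centring (log2 fold change -0.23, adjusted p = 0.0157).

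**Figure D2:**
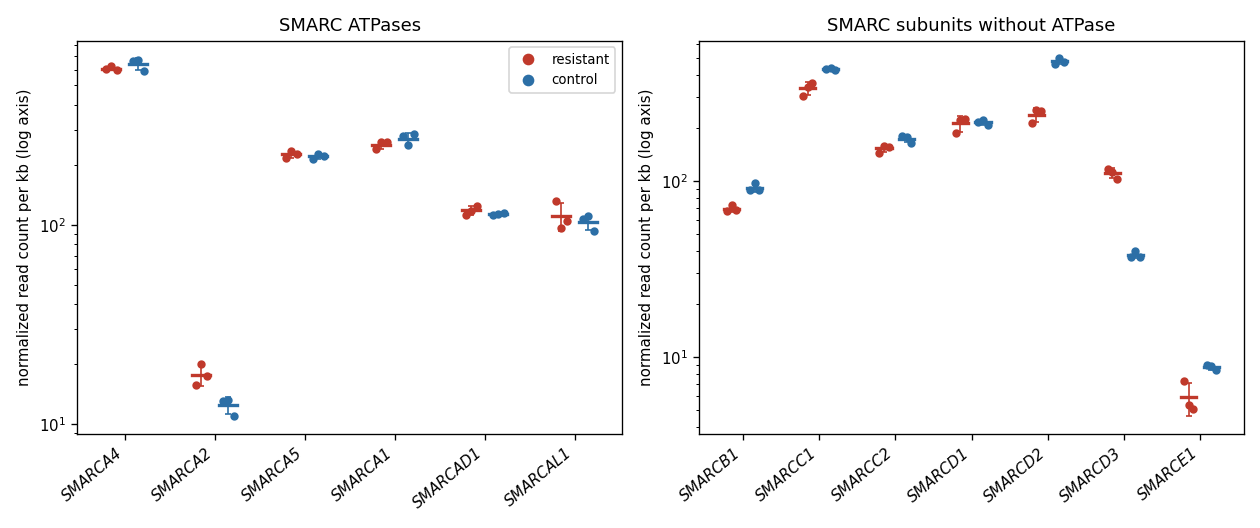
Normalized read count per kilobase of listed gene length (y axis, log scale) of the 6 SMARC ATPases (left) and 7 other SMARC subunits (right), each point a library, with the mean and SD of 3 resistant (red) and 3 control (blue) libraries. SMARCD3 is higher and SMARCD2 lower in every resistant library, and SMARCA4 overlaps between groups.

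Other SWI/SNF subunits, listed with earlier results of these data known, split: of 19, 5 rose (26.3%) and 4 fell (21.1%), with a median log2 fold change of 0.03. Among abundant protein-coding genes 27.8% rose and 35.6% fell. ARID2, which defines the PBAF form, rose to 561 ± 84.8 in the resistant libraries, against 405 ± 11.7 in the control libraries. BRD9, which defines the non-canonical form, fell to 938 ± 23.6, against 1363 ± 41.2, while BICRAL of that form rose to 482 ± 17.4, against 351 ± 21.1. PBRM1 and BRD7 of the PBAF form were not called, with log2 fold changes of 0.04 and -0.07. ACTL6A, an actin-like core subunit, fell to 857 ± 55.5, against 1136 ± 35.4. DPF3, a histone-reading subunit, fell to 48.00 ± 3.60, against 109 ± 1.67 (log2 fold change -1.17). Of 14 other remodelling ATPases, 3 rose (21.4%) and 5 fell (35.7%), the latter near the share of abundant genes. CHD1, an ATPase that binds methylated H3K4, was at 750.4 ± 90.99 in the resistant and 1373 ± 47.7 in the control libraries (log2 fold change -0.88).

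DNMT1 and DNMT3B, which write DNA methylation, and EZH1 and EZH2, which write a polycomb mark, fell in the resistant line, while DNMT3L rose. DNMT1, the maintenance enzyme that copies CpG methylation after replication, had 3901, 4722 and 4705 in the resistant libraries, against 6868, 6788 and 5957 in the control libraries. Every resistant value lay below every control value (log2 fold change -0.56, SE 0.08, limma adjusted p = 2.28e-06). DNMT3B, a de novo methyltransferase, had 224, 261 and 251 in the resistant libraries, against 357, 344 and 329 in the control libraries, again without overlap (log2 fold change -0.48, SE 0.10, limma adjusted p = 5.29e-04). DNMT3A, its paralog, had 328, 360.0 and 354 in the resistant libraries, against 386, 383 and 337 in the control libraries. Its groups overlapped and it was not called (log2 fold change -0.08, 95% interval -0.29 to 0.12). DNMT1 overlaps S1PR2, a receptor gene on the same strand with a log2 fold change of 1.205.

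DNMT3L, a cofactor of de novo methylation without activity of its own, known from germ cells, was the called gene with the lowest mean count, not adjusted for gene length. Its counts were 33.7, 21.2 and 28.6 in the resistant libraries, against 0, 2.08 and 0 in the control libraries. The resistant libraries held 85 reads in sum and the control libraries 2, a ratio per total reads of 43.6 with a 95% counting interval of 11.7 to 366, which covers counting error only. The fitted log2 fold change was 4.29 (limma adjusted p = 4.98e-07), a value that depends on the pseudocount at such low counts.

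The promoter windows of DNMT1, EZH2 and EZH1 are shown because these 3 genes fell together and hold a match to the E2F letters TTTCCCGC, TTTCGCGC, TTTGCCGC or TTTGGCGC on either strand, given in capitals (RefSeq, GRCh38.p14, minus strand, 5′ to 3′ in the direction of the gene). E2F factors drive S-phase genes. KDM1B was the remaining gene of the 67 with a match, which makes 3.77% of 106 windows against 3.31% of all 35116 windows in the table. Windows were found for 62 of the 67 genes. A match is a description of the letters and not a binding site.
DNMT1, chr19:10194904-10195203: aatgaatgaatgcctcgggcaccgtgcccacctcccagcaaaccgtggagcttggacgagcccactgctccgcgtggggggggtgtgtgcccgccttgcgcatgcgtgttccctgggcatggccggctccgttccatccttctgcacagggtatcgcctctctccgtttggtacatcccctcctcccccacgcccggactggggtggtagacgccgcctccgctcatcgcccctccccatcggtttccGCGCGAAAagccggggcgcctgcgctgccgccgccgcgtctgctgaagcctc
EZH2, chr7:148884242-148884541: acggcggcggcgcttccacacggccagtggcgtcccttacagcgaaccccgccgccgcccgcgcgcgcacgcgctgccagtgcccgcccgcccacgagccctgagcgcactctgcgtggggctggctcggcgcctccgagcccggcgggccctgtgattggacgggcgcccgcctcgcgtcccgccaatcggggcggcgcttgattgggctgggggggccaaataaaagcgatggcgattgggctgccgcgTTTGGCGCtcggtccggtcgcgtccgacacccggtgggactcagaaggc
EZH1, chr17:42744991-42745290: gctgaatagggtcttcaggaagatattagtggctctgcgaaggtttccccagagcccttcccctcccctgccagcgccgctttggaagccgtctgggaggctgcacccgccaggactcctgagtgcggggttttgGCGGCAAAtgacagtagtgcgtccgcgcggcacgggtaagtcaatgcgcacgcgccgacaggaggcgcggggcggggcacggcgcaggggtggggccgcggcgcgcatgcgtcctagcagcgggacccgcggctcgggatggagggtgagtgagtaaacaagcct

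A further 8 motifs were searched on both strands in the same windows. The GC box GGGCGG lay in 65.1% of the windows of the 62 genes and in 45.0% of all windows, CCAAT in 29.2% and 34.6%, the hypoxia response core ACGTG in 19.8% and 21.4%, and the ETS letters CCGGAAGT in 3.77% and 4.14%. The AP-1 letters TGAGTCA or TGACTCA lay in 4.72% and 4.95%, the YY1 letters AAGATGGCG in 4.72% and 1.75%, the NRF1 letters GCATGCGC in 2.83% and 3.05%, and the CRE letters TGACGTCA in 0 of 106 windows and 1.85% of all windows. Some of these overlap each other in GC-rich sequence. The windows of the 62 genes were rich in CG, with a median of 28 CG per window against 14 over all windows.

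EZH2 and EZH1 are the alternative catalytic subunits of polycomb repressive complex 2, which trimethylates H3K27. EZH1 had 567, 475 and 548 in the resistant libraries, against 665, 695 and 664 in the control libraries, with no overlap (log2 fold change -0.35, SE 0.09, limma adjusted p = 0.00165). EZH2 had 776, 892 and 998 in the resistant libraries, against 1072, 1026 and 1116 in the control libraries. The highest resistant value, that of library 3, lay just under the lowest control value, and the log2 fold change was -0.28 (SE 0.08, limma adjusted p = 0.00985). The EZH2 call ended under quantile normalization (adjusted p = 0.0508), under limma without trend (adjusted p = 0.147) and without control 3 (log2 fold change -0.25, adjusted p = 0.0590), and the EZH1 call ended under limma without trend (adjusted p = 0.0516). Of 11 other PRC2 genes, 5 fell (45.5%) and 1 rose (9.09%), against 35.6% and 27.8% of abundant protein-coding genes. PHF19, a Tudor-domain accessory factor, fell to 480.2 ± 16.2 in the resistant libraries, against 799.5 ± 34.2 in the control libraries. RBBP4, a histone-binding subunit, fell to 1235 ± 50, against 1562 ± 66.9. PHF1, a paralog of PHF19, rose to 695 ± 68.1, against 494 ± 22.4.

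The dedicated H3K27 demethylases both rose. KDM6A (UTX) had 849.5, 917 and 998 in the resistant libraries, against 683, 649 and 691 in the control libraries, with no overlap between the groups (log2 fold change 0.45, SE 0.08, limma adjusted p = 5.70e-05). KDM6B (JMJD3) had 1233, 1286 and 1317 in the resistant libraries, against 1066, 1076 and 997 in the control libraries, also without overlap (log2 fold change 0.29, SE 0.07, limma adjusted p = 0.00162). The KDM6B call ended under median centring, at a log2 fold change of 0.16 (adjusted p = 0.0916).

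The TET enzymes oxidise 5-methylcytosine as a step towards its removal. TET2 had 422, 396 and 363 in the resistant libraries, against 318, 293 and 307 in the control libraries, with every resistant value above every control value (log2 fold change 0.36, SE 0.10, limma adjusted p = 0.00450), and its call ended under median centring (adjusted p = 0.0694). TET1, the scarcest TET gene per kilobase, had 66.3, 58.1 and 73.00 in the resistant libraries, against 56.5, 51.96 and 56.9 in the control libraries. Its groups did not overlap but it was not called (log2 fold change 0.25, 95% interval -0.15 to 0.64). TET3 had 364, 433 and 410.4 in the resistant libraries, against 378, 399 and 378 in the control libraries, and was not called (log2 fold change 0.06, 95% interval -0.14 to 0.26). Of 10 other genes of DNA methylation, 4 rose (40%) and 2 fell (20%), against 27.8% and 35.6% of abundant protein-coding genes. UHRF1, which recruits DNMT1 to hemimethylated DNA, had 919, 1109 and 1102 in the resistant libraries, against 2841, 2798 and 2539.5 in the control libraries, a log2 fold change of -1.39 (SE 0.08, limma adjusted p = 5.75e-13). HELLS, a remodeller needed for normal DNA methylation, fell to 513 ± 62.7 in the resistant libraries, against 820.4 ± 52.6 in the control libraries. IDH1 and IDH2, which make the 2-oxoglutarate that TET and KDM enzymes consume, rose with log2 fold changes of 0.41 and 0.60. UHRF1, HELLS, DNMT1 and EZH2 are genes of cycling cells, and the proliferation gene MKI67 had 2302 ± 238 in the resistant and 7908 ± 648 in the control libraries. The part of proliferation in these falls was not tested.

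**Figure D3:**
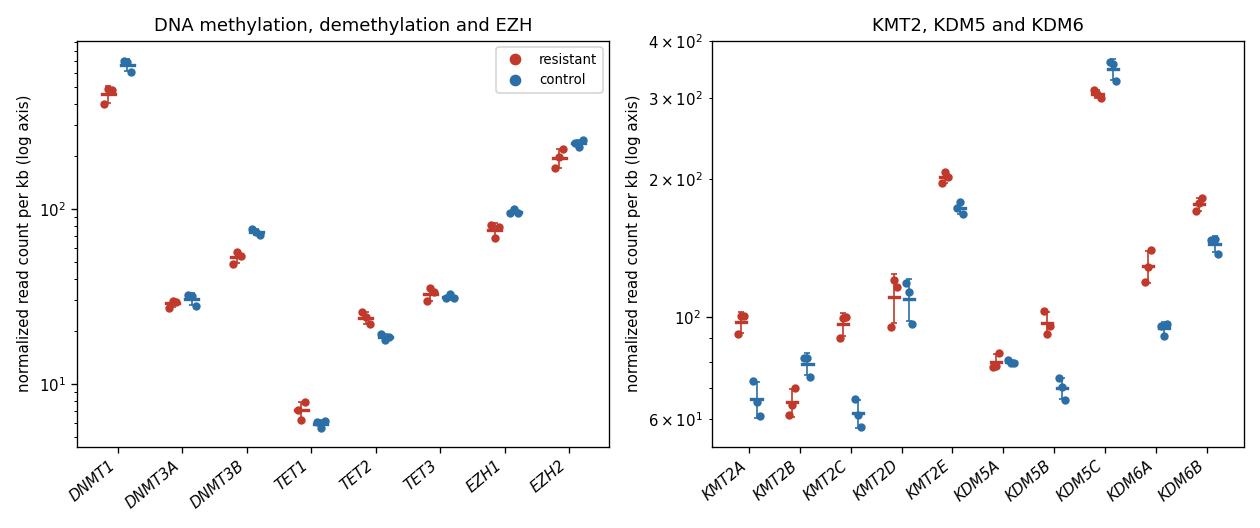
Normalized read count per kilobase of listed gene length (y axis, log scale) of DNMT, TET and EZH genes (left) and of KMT2, KDM5 and KDM6 genes (right), each point a library, with the mean and SD of 3 resistant (red) and 3 control (blue) libraries. DNMT1, DNMT3B, EZH1, EZH2, KMT2B and KDM5C are lower in all resistant libraries. TET1, TET2, KMT2A, KMT2C, KMT2E, KDM5B, KDM6A and KDM6B are higher in all resistant libraries, and of these TET1 was not called.

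Of the 7 class II and IV HDAC genes 5 rose (71.4%) and 1 fell (14.3%). Of the 4 class I genes, the ubiquitous nuclear deacetylases, 1 rose (25%) and 1 fell (25%). The shares were 27.8% higher and 35.6% lower among abundant protein-coding genes, and 20.4% and 21.1% among all tested genes. Under median centring 2 of the 7 rose and 1 fell, and 2 of the 4 class I genes fell, and the difference between classes was not tested. HDAC7, a class IIa enzyme that partners MEF2 factors, had 2035, 1653 and 1638 in the resistant libraries, against 1233, 1297 and 1183 in the control libraries. Library 1 was the highest, and no resistant value overlapped the control values (log2 fold change 0.51, SE 0.08, limma adjusted p = 1.03e-05). HDAC9, of the same class, had 868, 785 and 816 in the resistant libraries, against 542, 579.8 and 619.7 in the control libraries, again without overlap (log2 fold change 0.50, SE 0.08). HDAC6, the cytoplasmic tubulin deacetylase, had 1261 ± 49.9 in the resistant and 1028 ± 51.7 in the control libraries, a log2 fold change of 0.30. HDAC8, a class I enzyme that deacetylates cohesin, had 411, 354 and 376 in the resistant libraries, against 298, 294 and 292 in the control libraries. Its log2 fold change was 0.37 (SE 0.10, limma adjusted p = 0.00400). The calls of HDAC6 and HDAC8 ended under median centring, at adjusted p = 0.0798 and 0.0637.

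HDAC10, known as a polyamine deacetylase, had 92.8, 82.1 and 66.1 in the resistant libraries, against 57.5, 65.5 and 38.6 in the control libraries. HDAC11, the class IV enzyme, had 371, 349.8 and 316 in the resistant libraries, against 294, 292 and 257 in the control libraries. Both were called higher by a small margin, with log2 fold changes of 0.59 (SE 0.21, limma adjusted p = 0.0285) and 0.30 (SE 0.10, limma adjusted p = 0.0251). The HDAC10 log2 fold change was 0.48 (adjusted p = 0.0851) without resistant 1, 0.57 (adjusted p = 0.0798) without resistant 2 and 0.37 (adjusted p = 0.185) without control 3, and that of HDAC11 0.24 (adjusted p = 0.0616) without resistant 1, 0.29 (adjusted p = 0.0728) without resistant 2 and 0.23 (adjusted p = 0.116) without control 3. HDAC10 overlaps MAPK12, a kinase gene on the same strand with 898 reads per resistant and 1051 per control library and a log2 fold change of -0.28.

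HDAC3, the enzyme of the NCoR and SMRT corepressors, fell. It had 935 ± 107 in the resistant and 1183 ± 33.04 in the control libraries (log2 fold change -0.35, limma adjusted p = 0.00118). HDAC5, a class IIa enzyme, had 625 ± 51.99 and 742 ± 27.9 (log2 fold change -0.25, limma adjusted p = 0.0167), and the call was lost at log2 fold changes of -0.23 (adjusted p = 0.0610) without resistant 2, -0.20 (adjusted p = 0.0845) without resistant 3, -0.25 (adjusted p = 0.0549) without control 1 and -0.22 (adjusted p = 0.0848) without control 2. The HDAC3 call ended under limma without trend (adjusted p = 0.0751). HDAC1 and HDAC2 are paired in the same corepressors. HDAC1 had 1639.9, 1605 and 1688 in the resistant libraries, against 1773, 1752 and 1803 in the control libraries. Its groups did not overlap, yet it was not called (log2 fold change -0.11, 95% interval -0.24 to 0.02), and it was called lower under median centring (adjusted p = 0.00399). HDAC2 had 1696, 1701 and 1858 in the resistant libraries, against 1596, 1573 and 1794 in the control libraries, with overlap and no call (log2 fold change 0.08, 95% interval -0.06 to 0.23). HDAC4 was not called either (log2 fold change 0.19, 95% interval -0.03 to 0.42).

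Of 23 genes of HDAC corepressor complexes, 9 rose (39.1%) and 6 fell (26.1%), with a median log2 fold change of -0.05. Among abundant protein-coding genes 27.8% rose and 35.6% fell. RCOR2, a CoREST subunit, had 270.3, 186 and 181 in the resistant libraries, against 92.4, 87.3 and 58.8 in the control libraries (log2 fold change 1.41, SE 0.18, limma adjusted p = 1.63e-06). SUDS3, a SIN3 subunit, rose to 703 ± 30.2 in the resistant libraries, against 477 ± 40.4 in the control libraries. MTA1, a NuRD subunit, rose to 1309 ± 107, against 957 ± 66.99, while its paralog MTA2 fell to 1658 ± 192, against 2134 ± 53.6. CHD3, a NuRD ATPase, fell to 4007 ± 85.4, against 5288 ± 367. Of the 7 sirtuins, the NAD-dependent deacylases, 1 rose (14.3%) and 2 fell (28.6%). SIRT2 rose with a log2 fold change of 0.63, and SIRT6 and SIRT1 fell with -0.29 and -0.35. Of 10 lysine acetyltransferases, which oppose the HDACs, 1 rose (10%) and 3 fell (30%). KAT2B (PCAF) rose to 379 ± 17.9 in the resistant libraries, against 193 ± 17.8 in the control libraries, and its paralog KAT2A (GCN5) fell to 1071 ± 34.4, against 1515 ± 65.3.

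The demethylases that rose act on several residues. KDM4B, which removes methyl groups from H3K9 and is known as a hypoxia target, had 3714, 3098 and 3126 in the resistant libraries, against 2035, 2011 and 1863 in the control libraries. Library 1 was the highest and the groups were well apart; KDM4B rose 1.68-fold (log2 fold change 0.75, SE 0.07, limma adjusted p = 9.79e-09). Its paralogs KDM4A, KDM4C and KDM4D were not called, with log2 fold changes of -0.10, 0.27 and 0.00. KDM7A, which acts on H3K9 and H3K27, had 740.4, 675 and 683 in the resistant libraries, against 474, 497 and 476 in the control libraries, without overlap (log2 fold change 0.53, SE 0.08). KDM5B (JARID1B), an H3K4 demethylase linked to slow-cycling tumour cells, had 2668, 2381 and 2470.2 in the resistant libraries, against 1904, 1825 and 1707 in the control libraries, also without overlap (log2 fold change 0.47, SE 0.07, limma adjusted p = 4.55e-06). KDM5A (JARID1A), the paralog named in work on drug-tolerant lung cancer cells, had 943, 948 and 1011 in the resistant libraries, against 975, 961 and 959.9 in the control libraries. The groups overlapped and KDM5A was not called, with a log2 fold change of 0.00 and a 95% interval of -0.14 to 0.15. KDM3A, an H3K9 demethylase, had 2265 ± 87.3 in the resistant and 1836 ± 69.2 in the control libraries (log2 fold change 0.30, limma adjusted p = 5.30e-04).

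Of the 17 KDM genes, 3 fell. KDM3B, the paralog of KDM3A, had 1362, 1489 and 1523 in the resistant libraries, against 1919, 1997 and 1861 in the control libraries, with no overlap (log2 fold change -0.40, SE 0.07, limma adjusted p = 3.44e-05). KDM2A, an H3K36 demethylase with a CpG-binding zinc finger, had 5510.1, 5859 and 6121 in the resistant libraries, against 7597, 7129.6 and 6552 in the control libraries, also with no overlap (log2 fold change -0.28, SE 0.07, limma adjusted p = 0.00118). Its call ended under quantile normalization and limma without trend, at adjusted p = 0.0646 and 0.0861. KDM5C, an X-linked H3K4 demethylase, had 2676 ± 55.5 in the resistant and 3026 ± 157 in the control libraries (log2 fold change -0.18, limma adjusted p = 0.0293), with lost calls at -0.18 (adjusted p = 0.0844) without resistant 2, -0.16 (adjusted p = 0.0844) without resistant 3, -0.15 (adjusted p = 0.146) without control 1 and -0.16 (adjusted p = 0.128) without control 2. KDM1A (LSD1), the H3K4 demethylase of CoREST, had 2108, 2033 and 2232 in the resistant libraries, against 2119, 2151 and 2074 in the control libraries. It was not called (log2 fold change 0.01, 95% interval -0.13 to 0.14), and neither were KDM1B, KDM2B and KDM8, with -0.05, 0.08 and 0.28.

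The KMT2 proteins are the large H3K4 methyltransferases of COMPASS-like complexes. KMT2C (MLL3), which marks enhancers, had 1810.2, 2006 and 2008 in the resistant libraries, against 1334, 1228 and 1159 in the control libraries, with every resistant value above every control value (log2 fold change 0.65, SE 0.07, limma adjusted p = 8.63e-08). KMT2D (MLL4), its paralog at enhancers, had 1948, 2463 and 2384 in the resistant libraries, against 2427, 2320.4 and 1977 in the control libraries. Library 1 was low among the resistant libraries, the groups overlapped and KMT2D was not called (log2 fold change 0.01, 95% interval -0.18 to 0.20). KMT2A (MLL1) had 2871, 3145 and 3152 in the resistant libraries, against 2270.2, 2042 and 1907 in the control libraries, without overlap (log2 fold change 0.56, SE 0.07, limma adjusted p = 5.74e-07). KMT2B (MLL2), the closest paralog of KMT2A, had 670.1 ± 46.2 in the resistant and 812 ± 44.9 in the control libraries (log2 fold change -0.28, limma adjusted p = 0.00693). KMT2E, which reads rather than writes H3K4 methylation, had 1860.1 ± 53.1 and 1595 ± 45.5 (log2 fold change 0.22, limma adjusted p = 0.00799). It overlaps SRPK2, a gene on the opposite strand with 1418 reads per resistant and 1118 per control library and a log2 fold change of 0.30. The KMT2B call ended under limma without trend (adjusted p = 0.0858), and that of KMT2E under median centring (adjusted p = 0.325) and limma without trend (adjusted p = 0.0890).

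COMPASS subunits hold the KMT2 proteins in their active form. Of 13 of their genes, 5 fell and the other 8 did not pass the test, with a median log2 fold change of -0.16. The 38.5% that fell compare with 21.1% of all tested genes and 35.6% of the abundant protein-coding genes, so the share was near that of abundant genes. HCFC1, a cofactor of the KMT2A complexes, had 1922 ± 71.1 in the resistant and 2724 ± 215 in the control libraries (log2 fold change -0.50). DPY30, a core subunit, had 302 ± 13.6 and 464 ± 45.5 (log2 fold change -0.61).

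The KMT5 enzymes methylate H4K20. KMT5C, which makes its trimethylated form in heterochromatin, had 606, 635 and 592 in the resistant libraries, against 399, 393 and 404 in the control libraries, with the groups well apart (log2 fold change 0.61, SE 0.08, limma adjusted p = 1.93e-06). KMT5A, the monomethylase of the cell cycle, and KMT5B, the paralog of KMT5C, were not called, with log2 fold changes of -0.17 and -0.06, but both were called lower under median centring (adjusted p = 0.00970 and 0.0326).

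Of the SETD genes, SETD5, a SET-domain protein that associates with HDAC3 and NCoR, had 4203, 3924 and 3965 in the resistant libraries, against 2773, 2585 and 2488 in the control libraries. All resistant values lay far above the control values (log2 fold change 0.62, SE 0.06, limma adjusted p = 2.37e-08). SETD3, the actin histidine methyltransferase, had 1546 ± 78.6 in the resistant and 1182 ± 17.3 in the control libraries (log2 fold change 0.39, limma adjusted p = 5.76e-05). SETD6, which methylates RELA, had 328 ± 43.3 and 479.5 ± 31.2 (log2 fold change -0.55, limma adjusted p = 1.18e-04), and it overlaps CNOT1 on the opposite strand, a gene with 3018 reads per resistant and 3382 per control library and a log2 fold change of -0.22. SETD7, an H3K4 monomethylase, had 1300.0 ± 98.4 and 1588 ± 26.1 (log2 fold change -0.29, limma adjusted p = 0.00171), a call that ended under limma without trend (adjusted p = 0.0682). SETD1A, an H3K4 methyltransferase of COMPASS, was called with groups that overlapped, at 884, 1033 and 928 in the resistant libraries, against 1252, 1115 and 1006 in the control libraries (log2 fold change -0.24, limma adjusted p = 0.0220). Its log2 fold change was -0.23 (adjusted p = 0.0601) without resistant 3, -0.16 (adjusted p = 0.191) without control 1 and -0.25 (adjusted p = 0.0685) without control 2. SETD2, the H3K36 trimethylase mutated in kidney and lung cancers, was not called (log2 fold change -0.14, limma adjusted p = 0.101), though it was under median centring (adjusted p = 0.00272). SETD1B, SETD4 and SETD9 were not called, with log2 fold changes of -0.17, -0.16 and -0.22.

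Of 15 other lysine methyltransferases, 5 fell (33.3%) and 2 rose (13.3%), against 35.6% and 27.8% of abundant protein-coding genes. SUV39H1, an H3K9 trimethylase, fell to 246 ± 17.4 in the resistant libraries, against 359 ± 22.2 in the control libraries. NSD2, an H3K36 methyltransferase, fell to 2207 ± 49.97, against 2844 ± 186, while its paralog NSD3 rose to 1344 ± 68.6, against 1030.1 ± 3.33. Of 8 arginine methyltransferases, 5 fell (62.5%) and 1 rose (12.5%). PRMT5, the main symmetric dimethylase, fell to 729.6 ± 43.4 in the resistant libraries, against 1104 ± 17.1 in the control libraries (log2 fold change -0.60, SE 0.07, limma adjusted p = 4.22e-07), and PRMT2 rose to 1187 ± 57.03, against 844 ± 34.1.

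The balance within paralog pairs does not depend on library scaling. It was taken as the difference in log2(value + 1) between the genes of 12 pairs within each library. In 7 pairs the resistant and control values did not overlap, and each gave an exact two-sided permutation p of 0.1, the smallest that 3 against 3 libraries allow (adjusted p = 0.171 over the 12 pairs). Taken singly, 50.1% of all tested genes and 70.5% of abundant protein-coding genes did not overlap. The share over other gene pairs was not computed. KDM3A relative to KDM3B was at 0.64 ± 0.06 in the resistant libraries and -0.07 ± 0.11 in the control libraries, a difference of 0.70. KDM5B relative to KDM5A was at 1.37 ± 0.11 in the resistant libraries and 0.91 ± 0.07 in the control libraries, a difference of 0.47. In both pairs the first-named gene was higher relative to its partner in the resistant line.

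In the other 5 of these pairs the first-named gene was lower relative to its partner. KMT2D relative to KMT2C was at 0.22 ± 0.10 in the resistant libraries and 0.85 ± 0.07 in the control libraries, a difference of -0.63. SMARCA4 relative to SMARCA2 was at 4.87 ± 0.16 in the resistant libraries and 5.45 ± 0.05 in the control libraries, a difference of -0.58. DNMT3B relative to DNMT3A was at -0.50 ± 0.04 in the resistant libraries and -0.10 ± 0.06 in the control libraries, a difference of -0.40. These differences exceeded the spread within either group. Those of HDAC1 relative to HDAC2 (-0.20) and of SMARCC1 relative to SMARCC2 (-0.19) were smaller. EZH2 relative to EZH1 was at 0.74 ± 0.25 in the resistant libraries and 0.67 ± 0.10 in the control libraries, a difference of 0.08, and the groups overlapped, as they did for SMARCA5 and SMARCA1, KDM6B and KDM6A, KDM1A and KDM1B, and SETD1B and SETD1A.

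The fold changes of the genes were set beside those of their chromosomal neighbours, a comparison added after the values were seen. For each of the 67, the median log2 fold change of the nearest tested genes was taken, 25 on either side, fewer near the chromosome ends for KDM5A (32 in all) and SMARCA2 (31). SMARCD2 fell where its neighbours had a median of -0.83. The other lower genes of chromosome 17 lay among lower neighbours too, with medians of -0.53 for SMARCE1, -0.49 for EZH1 and -0.44 for HDAC5. KDM3B on chromosome 5 had a neighbour median of -0.53, close to its own log2 fold change of -0.40. Of the 6 genes on chromosome 7, 5 rose and 1 fell, against 20.4% and 21.1% of all tested genes and 27.8% and 35.6% of abundant protein-coding genes. The shares over all genes of chromosome 7 were not taken. KDM7A and SMARCD3 there had neighbour medians of 0.36 and 0.33, and KMT2A on chromosome 11 had 0.42.

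Other genes went against their neighbourhood. EZH2 fell among neighbours with a median of 0.41, SMARCB1 among 0.33, SETD7 among 0.23 and SETD6 among 0.20, while HDAC9 rose among -0.34. Of the 18 called genes with a neighbour median beyond 0.2 in either direction, 13 (72.2%) moved the same way as their neighbours and 5 the opposite way. The share among 3548 other called genes with such neighbours was 75.1%, so the 67 genes were close to the background in this. DNA copy number was not analysed here.

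**Figure D4:**
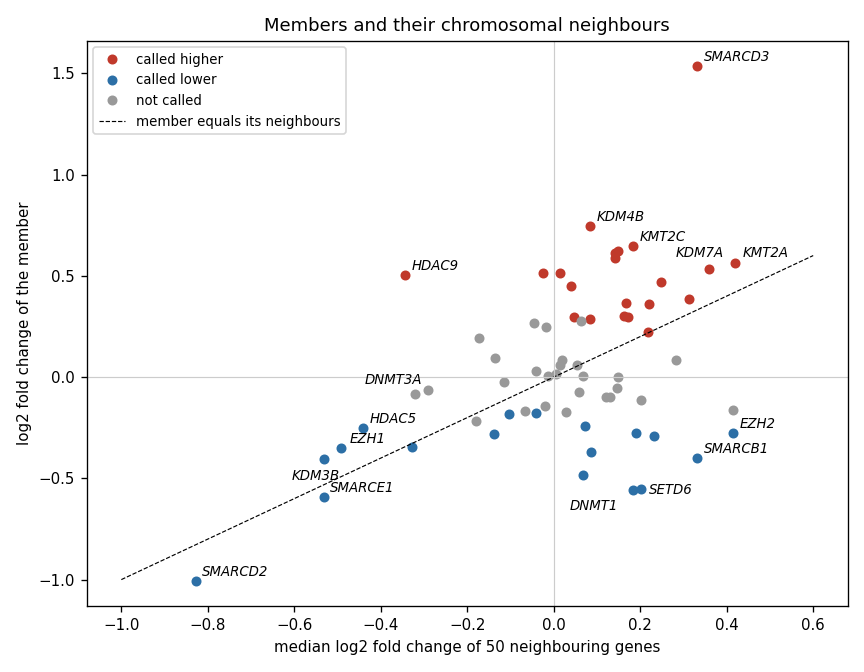
Log2 fold change of each gene, resistant over control (y axis), against the median log2 fold change of its nearest tested neighbours, 50 for all but a pair of genes near chromosome ends (x axis); each point is 1 of the genes, coloured by its call, the dashed line marks equality, and DNMT3L lies beyond the y axis. SMARCD2 is at the lower left with a neighbour median of -0.83, and EZH2 and SMARCB1 lie below neighbours with medians above 0.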

How the data were processed

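The authors deposited 1 table per library with 30330 Ensembl genes, coordinates, a gene length and a signal value. Build GRCh38 is named in the submitters' processing notes; aligner, counting tool, strand use and normalization tool are not given in the sources used here. NEBNext Ultra and SMARTer kits are named in the labels. Every library's deposited signal values (100%) fell on multiples of 1 step to within 0.001 reads, so they are read counts divided by a size factor, and whole reads were recovered.

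Values were tested as log2(value + 1) with limma-trend (limma 3.58.1, R 4.3.3, robust, group as the sole term, two-sided, all 6 libraries) for genes reaching 1 in 3 or more libraries, with Benjamini-Hochberg adjustment over 24560 genes and a threshold of 0.05. Fold changes on this scale understate those of scarce genes. Symbols were available for 30078 genes. Paralog ratios used exact permutation tests. The count tests edgeR 4.0.16 and DESeq2 1.42.0 were alternatives on recovered reads. The pipeline was tested on simulated data. Members, gene lists and motifs were chosen with earlier results of these data known. Values per library are given for genes past 2-fold, the called gene with the largest change in each family and a set list of writers and erasers, and for further genes chosen after their values were seen; at most 3 called genes per list and direction are named, besides markers. Promoter windows came from the RefSeq table of GRCh38.p14.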

Additional observations from a re-analysis of the deposited data

How the results depend on the processing

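Over the 16 alternatives, 15 of the 22 higher and 8 of the 18 lower calls held throughout, and no called gene changed sign. Quantile normalization ended the calls of EZH2, HDAC5, HDAC10, KDM2A, KDM5C, SETD1A and SMARCC2, and median centring those of HDAC6, HDAC8, HDAC10, HDAC11, KDM6B, KMT2E and TET2. limma without trend ended 14 calls, those of EZH1, EZH2, HDAC3, HDAC5, HDAC6, HDAC10, HDAC11, KDM2A, KDM5C, KMT2B, KMT2E, SETD1A, SETD7 and SMARCC2, and DESeq2 those of HDAC10 and SMARCC2. limma without trend gave 18 higher and 8 lower calls among the 67 and 23 higher calls over the gene lists, against 22, 18 and 35. The median log2 fold change of the 67 was 0.08 under quantile normalization and -0.13 under median centring, against 0.01. Over all tested genes it was -0.12 under median centring. edgeR gave 22 and 18 calls and DESeq2 21 and 17. Leaving out 1 library gave 20 to 22 higher and 14 to 17 lower calls. With the replicate number as a block there were 22 and 18 calls, and no call among the 67 changed. Same-numbered libraries had correlations of their deviations of -0.0039, 0.012 and 0.082, and those of different-numbered libraries ran from -0.066 to 0.040. Whether same-numbered libraries shared a culture or batch was not tested.

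Genes that were not called changed sign in some alternatives, and the cause was not tested. Under median centring the log2 fold change was -0.13 for KDM1A, KDM5A and KDM4D, -0.12 for KMT2D, -0.10 for SMARCA5, -0.074 for SMARCAD1, -0.073 for TET3, -0.050 for KDM2B, -0.051 for HDAC2 and -0.040 for SMARCAL1. Under quantile normalization it was 0.044 for SMARCD1, 0.0046 for KMT5B, 0.083 for SMARCA4 and -0.098 for KDM4D. With the gene length trend removed it was -0.064 for KDM5A, -0.010 for SMARCA5, -0.086 for KMT2D and -0.0066 for TET3. With 1 library left out it ran from -0.030 to 0.037 for KDM1A, -0.076 to 0.061 for SMARCD1, -0.030 to 0.020 for KDM5A, -0.035 to 0.19 for SMARCAL1, -0.31 to 0.00066 for SETD1B, -0.075 to 0.12 for KMT2D and -0.10 to 0.14 for KDM4D, and the resistant minus control difference of EZH2 relative to EZH1 from -0.0065 to 0.22. At this depth HDAC10, TET1, SETD9, KDM4D, KDM8 and DNMT3L stayed under 100 normalized read counts in every library, which limits what could be detected for them.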
